A study of Xenopus laevis with 3 samples.

Results

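The genes described here are 102 annotated genes of the larval *Xenopus laevis* inner ear that were lower in pool 3 than in pools 1 and 2. They were selected on the measured values themselves, from 7125 annotated genes that had a probe set with a mean of 5 or higher. A gene was a member if such a probe set read at least 0.8 lower in pool 3 than in each of the other pools, on the log2 scale, and symbols beginning with tnn, myl, myh or act were left out. Members make up 1.43% of these genes. The contrast of pool 3 with pools 1 and 2 chose the members, so every difference below is a description and none was tested.

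Inner ear RNA was hybridized to 3 Affymetrix GeneChip arrays, 1 array per pool of ears. The larvae came from a commercial supplier, no genotype or treatment is given for any of them, and all were at stages 56 to 58 and 38 to 44 days after fertilization, so the pools are replicates of 1 condition. Pool 3 came from 8 animals, against 10 and 7 animals in pools 1 and 2. The larvae of pool 3 weighed 0.48 ± 0.05 g, against 0.55 ± 0.11 g and 0.59 ± 0.10 g in pools 1 and 2, and measured 4.93 ± 0.29 cm, against 5.03 ± 0.30 cm and 5.07 ± 0.29 cm (mean ± the error in the sample labels, whose kind is not stated). Values are GCRMA values, which are background corrected and normalized log2 intensities, so a difference of 1 is a factor of 2. Pool 3 is 1 array, so differences of the animals, the dissection and the hybridization cannot be told apart.

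The inner ear of a tadpole lies in a cartilage capsule beneath skin and beside head muscle, and ear tissue taken by dissection holds hair cells, supporting cells, neurons, connective tissue and blood. Skeletal muscle fibres contract by sliding actin and myosin filaments. Calcium pumped into and released from the sarcoplasmic reticulum sets the contraction, parvalbumins buffer that calcium, and creatine kinase and glycolysis renew the ATP. Many genes of this machinery have muscle forms that few other cells use, and fast fibres use their own forms of many of them. Mammalian hair cells also use a parvalbumin, oncomodulin.

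The arrays as a whole were alike. The median over 32475 frog probe sets was 7.55 in pool 3, against 7.51 and 7.52 in pools 1 and 2, and Pearson's r was 0.995 and 0.994 for pool 3 with pools 1 and 2 and 0.996 between pools 1 and 2, across probe sets, which are not independent replicates. The 3′ minus 5′ difference of the control probe sets, a sign of RNA integrity, was 3.19 in pool 3, against 3.16 and 3.32 for ef1a, and 1.07, against 1.10 and 1.03 for gapdh. Of the 13 annotated genes of the list for supporting cells and otolith or tectorial matrix, 12 had a mean of 5 or higher over the 3 pools. None of these 12 met the rule, but members are only 1.43% of all genes. The differences were below 0 for 9 of the 12 and above 0 for 3. The gene with a mean under 5, fgfbp1.S, read 3.36 in pool 3, against 4.81 and 5.02 in pools 1 and 2. An otolith gene outside that list, pla2g2e.S, met the rule. A higher value in pool 3 by the same margin was seen for 112 of the 7125 genes (1.57%), so pool 3 did not stand apart in the low direction alone. Among all frog probe sets of mean 5 or higher, annotated or not, 208 of 19931 (1.04%) were lower by 0.8 or more. Of these, 76 carry no gene symbol, 5 carry several, and 14 carry the symbols left out.

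**Figure D1:**
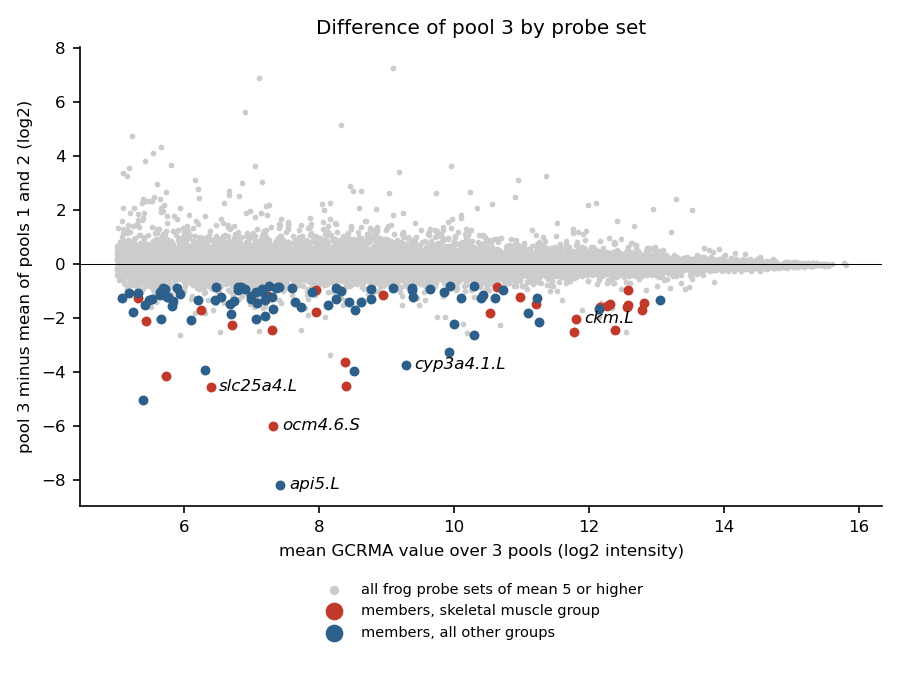
Each point is a probe set, with its mean GCRMA value over the 3 pools on the x axis and pool 3 minus the mean of pools 1 and 2 on the y axis, both in log2 units. The 113 member probe sets lie below 0 by at least 0.8, with api5.L at -8.19 and ocm4.6.S at -6.01 farthest from 0.

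The gap, which is the lower of pools 1 and 2 minus pool 3, had a median of 1.17 over the 102 genes, from 0.80 to 7.88. It was 1 or more in 64 genes, 2 or more in 17 and 4 or more in 6. Pools 1 and 2 differed from each other by a median of 0.16 in the 113 member probe sets, against 0.17 in all probe sets of mean 5 or higher. For 1 member probe set this difference was larger than the gap. The value in pool 3 was below 4, the level that the study took as detected, on the probe set with the widest gap of 6 members. Of these, api5 and MGC75582 were above 4 in pool 3 on other probe sets.

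Genes placed in a skeletal muscle group, by function and after their values were seen, made up 20 of the 102 members, with a median gap of 1.84. This group and the groups by function below were formed among the members only. No share over all genes can therefore stand beside their counts. The muscle group takes in pygb.S, a glycogen phosphorylase of the brain type. The parvalbumin genes, which RefSeq names oncomodulins (ocm), had some of the widest gaps. Whether their RNA came from muscle fibres or from hair cells was not tested. ocm4.6.S read 3.32 in pool 3, against 9.19 and 9.46 in pools 1 and 2. ocm4.10.L read 5.39 in pool 3, against 9.76 and 10.07. The pools 1 and 2 lay within 0.32 of each other for both genes, while pool 3 was below the level of detection for the first only. ocm4.1.L was lower on both of its probe sets, with 10.76 in pool 3, against 13.15 and 13.28 on the one, and 10.10 in pool 3, against 12.59 and 12.64 on the other. ocm4.4.S met the rule on 4 probe sets, with gaps from 1.13 to 1.58, and ocm3.S, which RefSeq also lists as pvalb, read 8.17 in pool 3, against 9.32 and 9.36. Symbols beginning with ocm or pvalb were gathered with the members known, so their count is a description only. Of 9 such genes on the array, 6 had a mean of 5 or higher and 5 of these were members, against 1.43% of all genes. The exception was pvalb.S, which RefSeq places apart from the ocm genes and which read 9.24 in pool 3, against 8.88 and 8.57. ocm4.3.L missed the rule only through its mean of 4.85, as it read 2.16 in pool 3, against 6.25 and 6.13. In RefSeq (assembly v10.1) the ocm genes stand side by side, with 12 in the L subgenome and 8 in the S subgenome, and the names of some member probe sets mark probes shared between transcripts, so the values of single copies are uncertain.

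Proteins of the sarcomere came next. mybph.S, a myosin-binding protein of the thick filament, read 5.96 in pool 3, against 9.38 and 9.79 in pools 1 and 2. myoz1.S, which anchors proteins at the Z-disc of fast fibres, read 5.67 in pool 3, against 7.98 and 8.25. The other copy, myoz1.L, had a mean under 5 but showed a like difference, with 3.26 in pool 3, against 5.42 and 5.36. For each of these probe sets pools 1 and 2 lay close together and pool 3 lay far below them. The tropomyosins cover the binding sites of the actin filament, and tpm1.L read 11.64 in pool 3, against 13.30 and 13.42. tpm2.S read 5.20 in pool 3, against 7.77 and 7.18, but a second probe set annotated as tpm2.S was not lower, with 8.50 in pool 3, against 7.88 and 8.34. LOC397944 and MGC75582 were not counted in the muscle group. LOC397944, for which the annotation gives no name, was lower on a probe set of the same cluster number as tpm1.L. That probe set read 11.04 in pool 3, against 12.65 and 12.78, and another probe set of LOC397944 was level. pdlim7.S, a PDZ and LIM domain protein of actin fibres, read 5.11 in pool 3, against 6.69 and 6.96, while 2 probe sets annotated as pdlim7-a were not lower. MGC75582, whose S copy RefSeq also lists as act2, was the only member whose copies both met the gap at a mean of 5 or higher. Its L copy read 3.69 in pool 3, against 7.55 and 7.67, and its S copy 8.55, against 11.02 and 11.33. smpx.L encodes a small muscle protein whose human gene is also a deafness gene, and it read 6.44 in pool 3, against 7.34 and 7.95.

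Other members act in calcium handling and energy supply of the fibre. casq1.S, the calcium store of the reticulum, read 6.78 in pool 3, against 8.62 and 8.48 in pools 1 and 2. atp2a1.S, the calcium pump of fast fibres, read 10.23 in pool 3, against 11.64 and 11.77 on one probe set. On another, pool 3 lay between the other pools, with 12.35 in pool 3, against 12.52 and 12.29. The muscle creatine kinase ckm.L met the rule on 5 probe sets, with gaps of 1.43 or more, and the one with the widest gap read 10.45 in pool 3, against 12.45 and 12.52. This was the most probe sets of any member. slc25a4.L, the mitochondrial ADP and ATP carrier typical of muscle and heart in mammals, read 3.34 in pool 3, against 7.86 and 7.98. eno3.L, the muscle form of enolase, read 2.95 in pool 3, against 7.14 and 7.10. Both were below 4 in pool 3 and well above it in the other pools. adss1.L, an enzyme of purine nucleotide supply in muscle, read 4.46 in pool 3, against 5.75 and 5.71, but its S copy was not lower, at 8.08, against 7.90 and 7.73. fbp2, the muscle fructose bisphosphatase, read 7.31 in pool 3, against 8.21 and 8.36. cpt1b.L, which brings fatty acids into muscle mitochondria, read 10.06 in pool 3, against 10.94 and 10.93. pygb.S, the brain-type glycogen phosphorylase, read 4.04 in pool 3, against 6.06 and 6.22. Whether its RNA came from muscle fibres was not tested.

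**Figure D2:**
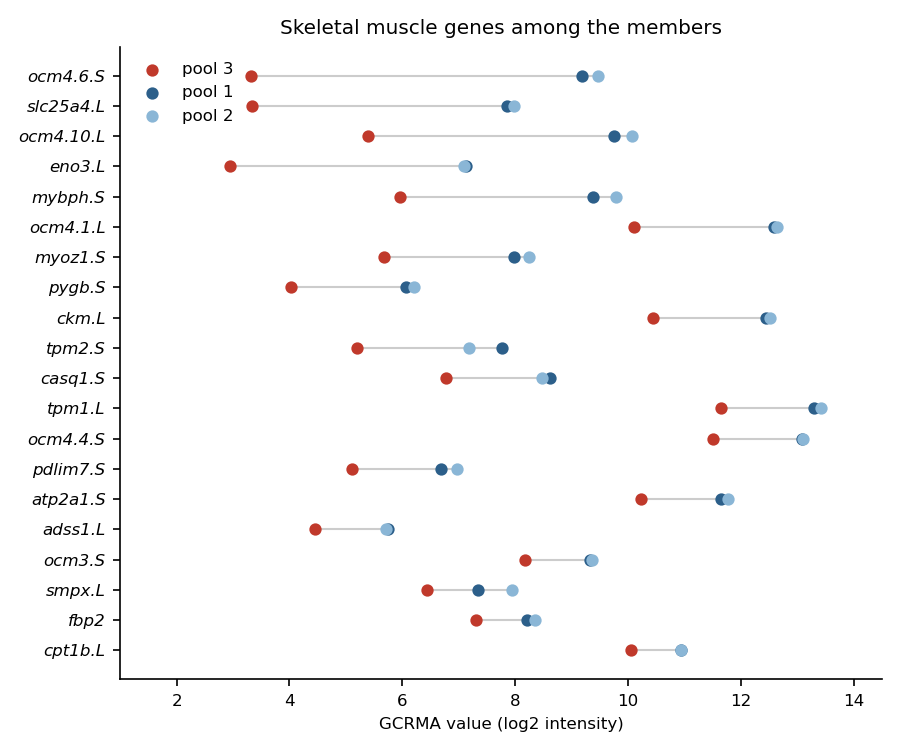
GCRMA values (log2 intensity, x axis) of the 20 members placed in the skeletal muscle group, 1 probe set per gene (the one with the widest gap), for pool 3, pool 1 and pool 2. In each row the point of pool 3 lies left of the other points, with gaps from 0.87 for cpt1b.L to 5.87 for ocm4.6.S.

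The difference covered a part of the muscle genes only. Of 115 symbols in a list of skeletal muscle genes outside the symbols left out, 67 are on the array and 35 had a mean of 5 or higher. Of these 35, 11 (31.4%) were lower by 0.8 or more on at least 1 probe set, against 1.43% of all genes. Only bin1 was higher by this margin, on 1 probe set, against 1.57% of all genes. The median difference of the list was -0.16, against -0.02 over all annotated genes, so the difference lay in some of its genes. With the probe set of highest mean for each gene the median was 0.0244. Linear intensities summed over the list, with 1 probe set per gene, came to 58243 in pool 3, against 70898 and 72732 in pools 1 and 2. Of the 67 genes, 25 were below 4 on every array, and these include the defining factors of muscle precursors myod1, myog, myf5 and myf6, at 1.89 to 2.06 throughout. chrna1.L, a subunit of the acetylcholine receptor of muscle, read 10.77 in pool 3, against 10.52 and 10.85. chrng.L, the embryonic subunit, went the other way, with 7.98 in pool 3, against 1.87 and 1.88. In bulk tissue fewer muscle cells and less RNA per muscle cell cannot be told apart, and the part of muscle in the other members was not tested.

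Of the genes of energy and creatine metabolism, 6 of 29 (20.7%) were lower, against 1.43% of all genes. These were ckm, eno3 and slc25a4, which the muscle list also holds, and cpt1b, pygb and adss1. The median difference of the list was 0.000975. Of the forms that other tissues share, ckb and eno1 were level, but the brain-type pygb was lower. The differences of the brain creatine kinase ckb.L were 0.03 to 0.12 on its 5 detected probe sets, and eno1.L read 13.31 in pool 3, against 13.26 and 13.23. pygm.L, the muscle glycogen phosphorylase, was not lower, with 13.47 in pool 3, against 13.41 and 13.39.

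The symbols left out by the rule hold other parts of the contractile machinery. They also hold genes that are not particular to muscle, such as actb, actr3, actl6a, myh9 and mylip. The counts and the median below are therefore not those of muscle genes alone. Of 33 genes with such symbols and a mean of 5 or higher, 9 (27.3%) were lower by 0.8 or more on at least 1 probe set. The share was 1.55% of all annotated genes with these symbols included. tnnc2.S, the calcium sensor of fast fibres, had the widest gap, with 5.91 in pool 3, against 9.36 and 9.22 in pools 1 and 2. actc1.L, a sarcomeric actin, read 9.18 in pool 3, against 11.34 and 11.53. mylpf.L, a light chain of fast myosin, read 10.85 in pool 3, against 12.81 and 12.81, and tnnt3.S, troponin T of fast fibres, 8.55, against 10.46 and 10.60. The median difference of the 33 genes was -0.05, with 14 above 0. Other skeletal forms differed less, as acta1.S read 7.22 in pool 3, against 7.63 and 7.55, and tnnt1.S, troponin T of slow fibres, 5.18, against 5.39 and 4.97. Outside skeletal muscle, actb.L read 15.00 in pool 3, against 14.92 and 14.95 on 1 of its probe sets, and acta2.L, the smooth muscle actin, 10.48, against 9.61 and 9.42.

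**Figure D3:**
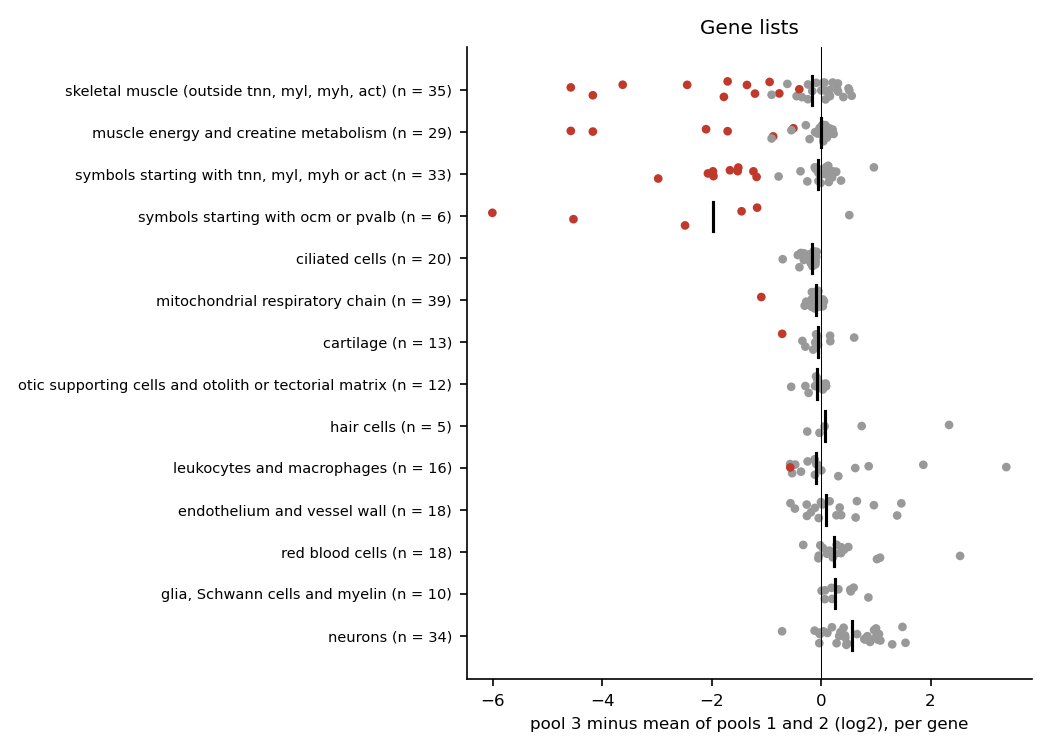
Pool 3 minus the mean of pools 1 and 2 (log2, x axis) for genes of 14 lists, 1 point per gene (mean over its probe sets of mean 5 or higher). Red points mark genes with a probe set at least 0.8 below both other pools, and black bars are list medians, from -1.97 for ocm and pvalb symbols to 0.57 for neurons.

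Enzymes of steroids, sterols and foreign compounds formed another set of 10 members, grouped after their values were seen. cyp3a4.1.L and cyp3a4.2.L are cytochromes that oxidize drugs and steroids. The probe set of cyp3a4.1.L read 6.79 in pool 3, against 9.78 and 11.30 in pools 1 and 2, and that of cyp3a4.2.L read 7.75, against 10.34 and 11.70. Pools 1 and 2 were also apart, by 1.52 and 1.35, and both probe sets belong to the same cluster, so they are not separate evidence. The related cyp3a5.L lay between the other pools, with 9.92 in pool 3, against 9.87 and 10.09. XB5810926.L, which RefSeq also lists as CYP4T7, was not counted in this group, since its symbol is an identifier. It read 2.02 in pool 3, against 6.85 and 7.29, and another of its probe sets, with a mean of 4.95, read 1.91, against 6.15 and 6.79. akr1c2.L, an aldo-keto reductase of steroids, read 8.52 in pool 3, against 10.53 and 10.94, while its S copy lay between the other pools. sult1e1.L, an oestrogen sulfotransferase, read 4.27 in pool 3, against 6.20 and 6.46. The steroid dehydrogenases hsd3b7.S and hsd17b14.L read 7.40, against 9.17 and 9.02, and 4.77, against 6.44 and 6.23. The L copy of hsd3b7 was not lower, with 10.96 in pool 3, against 10.71 and 10.87. A second probe set of hsd17b14.L met the rule as well, at 7.65, against 8.63 and 8.71. apoe.L, a carrier of lipids, had a gap of 1.08, nr1h2.L, a receptor for oxysterols, 0.89, sc5d.L, an enzyme of cholesterol synthesis, 0.84, and nqo1.L, a quinone reductase, 0.81. Another apoe.L probe set had a gap of 0.25. Of 29 genes in the list for lipid and sterol metabolism apoe and sc5d (6.90%) were lower by 0.8 or more, against 1.43% of all genes. The list's median difference was 0.01.

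Genes of the cilium and the sperm tail gave 6 members, also grouped after their values were seen and with no count of such genes outside the members. tepp.L read 5.68 in pool 3, against 7.10 and 7.27 in pools 1 and 2, and iqcd.L, a part of the dynein regulatory complex, 4.91, against 6.28 and 6.29. dydc1.L read 4.06 in pool 3, against 6.21 and 5.46, and nme9.L 4.39, against 5.75 and 6.12. fam166c.S and ankrd45.S had gaps of 1.11 and 0.85. Pool 3 was below both other pools for each, and pools 1 and 2 were close except for dydc1.L. A separate list of genes of ciliated cells holds none of these 6. No gene of its 20 with a mean of 5 or higher reached the margin of 0.8, against 1.43% of all genes. In a list of this size that says little. The differences of all 20 were below 0, from -0.70 to -0.08, with a median of -0.16, against -0.02 over all annotated genes.

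Among the members was also pla2g2e.S, which RefSeq lists as otoconin-22 too. Otoconin-22 is a major matrix protein of the calcium carbonate crystals in the otolith organs of the frog. It read 12.15 in pool 3, against 13.68 and 13.33 in pools 1 and 2, so pool 3 lay below the other pools, which were 0.35 apart.

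Genes that act in immune defence and the lysosome gave 10 members with gaps of 0.85 to 1.40, placed together after their values were seen. The list for MHC, interferon and innate immunity was mixed. Of its 22 genes 5 were higher by 0.8 or more, against 1.57% of all genes, and none was lower by it, against 1.43%. The median difference was 0.20, with 13 genes above 0 and 9 below. prss16.S, a serine protease of the thymus, read 7.50 in pool 3, against 8.92 and 8.90 in pools 1 and 2, and its L copy was lower by 0.64. fcn1.L, a ficolin that binds microbial sugars, read 9.15 in pool 3, against 10.24 and 10.16. gm2a.S, a lysosomal activator protein, read 8.57 in pool 3, against 9.62 and 9.99. was.L and myo1f.L, which act in the actin cytoskeleton of white blood cells, had gaps of 0.87 and 1.03. The other members of this group were mr1-like.L and siae.L, with gaps of 1.22 and 1.14, the phagocytosis receptor havcr1.L at 0.99 and the ATP-gated channel p2rx4.L at 0.85. ripk3L.2.L, a kinase gene of the cell death pathway, read 6.20 in pool 3, against 7.26 and 8.50, and was the 1 member whose pools 1 and 2 differed by more than its gap. In the list of white blood cell genes 1 of 16, was, met the margin (6.25%, against 1.43% of all genes). In that list 2 of 16 genes were higher by the margin, against 1.57% of all genes, and the median difference was -0.10.

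Smaller sets completed the named members. In the mitochondrion, ndufs1.L of complex I read 5.69 in pool 3, against 7.72 and 7.78, but another ndufs1.L probe set did not show this, with 12.43 in pool 3, against 12.49 and 12.62. ndufs1 was the only one of 39 respiratory chain genes past the margin (2.56%, against 1.43% of all genes), and the median of that list was -0.08. Other mitochondrial members were lactb2.L and ak3.S, with gaps of 1.36 and 1.33, the iron carrier slc25a28.S at 0.98 and sfxn2.S at 0.83. Other probe sets of these genes were not lower by the margin. For sfxn2.S the differences of the others with a mean of 5 or higher were 0.10 to 0.26, for slc25a28 they were -0.10 to 0.49, and that of ak3.L was -0.03. The keratin krt62.L read 5.90 in pool 3, against 7.93 and 7.77. hapln3.S, which links hyaluronan to proteoglycans, read 7.69 in pool 3, against 9.29 and 8.88, and its other 3 probe sets, of both copies, lay lower by 0.43 to 0.54. scnn1b.S, a subunit of the epithelial sodium channel, read 6.83 in pool 3, against 7.70 and 7.67, while its L copy read 11.35, against 11.07 and 11.40. The uroplakin upk3a.L and the collagen col21a1.L had gaps of 0.87 and 0.84. In the remaining 45 members, placed in no group, the median gap was 0.99. The stress factor ddit3.L read 5.45 in pool 3, against 7.91 and 6.74, so that pools 1 and 2 were also far apart. The carbonic anhydrase-related ca10.L read 4.70 in pool 3, against 6.55 and 7.04. MGC52622, which the annotation does not name further, read 5.88 in pool 3, against 9.29 and 10.37, and XB5745823.L read 9.81, against 12.59 and 11.37. In all, 14 members carry such an identifier as their symbol, and for XB5810926.L, MGC75582.S and MGC64462 RefSeq also lists CYP4T7, act2 and DNASE1.

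api5.L, an inhibitor of apoptosis, had the widest gap of any member, with 1.97 in pool 3, against 10.47 and 9.84 in pools 1 and 2. The difference was not seen elsewhere in the gene. Another api5.L probe set read 12.64 in pool 3, against 12.62 and 12.46, and that of api5.S read 13.01, against 13.12 and 12.79. rps25.S, a ribosomal protein, was a like case, with 9.03 in pool 3, against 9.92 and 9.97 on the member probe set, and values from 15.20 to 15.31 in all pools on its other 3. fzd8.S, a Wnt receptor, was lower on 1 of 4 probe sets of the S copy, with 9.40 in pool 3, against 10.20 and 10.24.

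The other probe sets of the members allowed the gene to be set against the probe set. Of the 102 members, 35 had another probe set with a mean of 5 or higher, 56 in all, and by the rule none of these was lower by 0.8. They lay below both other pools in 25 of 56 (44.6%), above both in 14 and between them in 17, with a median difference of -0.03 and a range from -0.67 to 0.49. Over all frog probe sets of mean 5 or higher, 36.0% lay below both. For 17 of the 35 genes no other such probe set was lower than both pools. Both copies had a mean of 5 or higher in 23 members, and both met the margin in 1. More than 1 probe set met the rule in 6 members, ckm, ocm4.4, ocm4.1, tpm1, hsd17b14 and MGC75582. Of the 113 member probe sets, 20 have names that mark probes shared by several transcripts (_a in 8, _s in 5 and _x in 7). Those with _s or _x may not measure 1 gene alone.

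**Figure D4:**
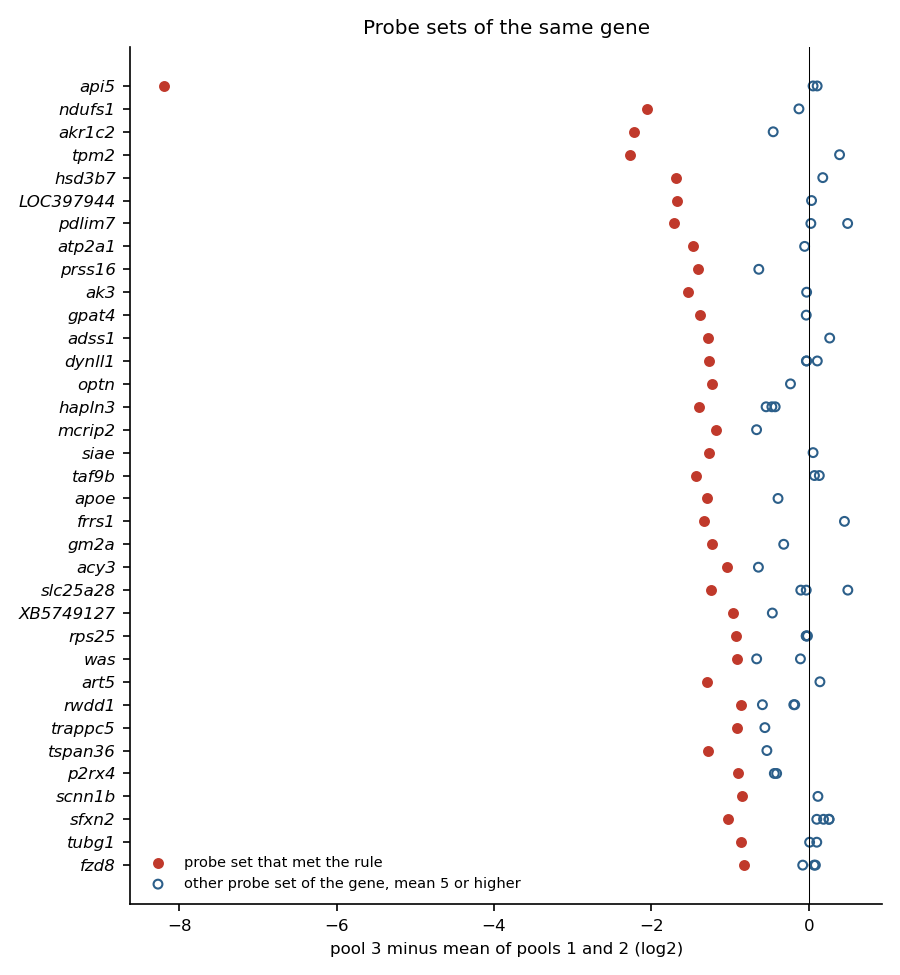
Pool 3 minus the mean of pools 1 and 2 (log2, x axis) for the 35 members with another probe set of mean 5 or higher; filled points are the probe sets that met the rule and open points the others. The open points lie between -0.67 and 0.49, and those of api5 at 0.10 and 0.05.

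At the margin of 0.8, the members just inside were nqo1.L, tubg1.L, fzd8.S, MGC64462 and ism1.L, with gaps from 0.81 for nqo1.L to 0.80 for ism1.L. Just outside were MGC83062, smyd5.L, fabp3.S, tmem167b.L and npl.S, with gaps from 0.80 to 0.78. Of these, fabp3.S encodes the fatty acid carrier of muscle and heart and read 10.09 in pool 3, against 10.88 and 11.10 in pools 1 and 2. At the minimum mean of 5, c3orf33.L and mpv17l2.L lay just outside at 4.99, and below them stood ocm4.3.L, sypl2.S and atf5.2.S, each lower in pool 3 by the margin.

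No member belongs to the lists for neurons, glia and myelin, hair cells, red blood cells, bone and tendon, or endothelium. These lists held 34, 10, 5, 18, 24 and 18 genes with a mean of 5 or higher. Members are 1.43% of all genes, so their absence from lists of this size says little about these cell types. The hair cell list names ocm, but the ocm3 and ocm4 members carry other symbols and were not matched to it. In several of these lists pool 3 was higher. The neuron list had a median difference of 0.57, with 29 of 34 genes above 0. All 10 glia and myelin genes were above 0, with a median of 0.26. Red blood cell genes had a median of 0.24, and 4 of 18 were higher by 0.8 or more, against 1.57% of all genes. Of 18 endothelium and vessel wall genes 3 were higher by 0.8 or more on a probe set of mean 5 or higher, against 1.57% of all genes. These were the smooth muscle markers acta2, cnn1 and tagln. Pools 1 and 2 were also apart for tagln.L, at 5.68 and 7.57, and for cnn1.S, at 5.30 and 6.12. Other genes of smooth muscle differed less, by -0.06 to 0.35 for the probe sets of myh11 and by -0.07 and -0.03 for those of myl9. The part of these cell types in the members' values was not tested.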

How the data were processed

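Inner ear RNA of 3 pools of larval *X. laevis* was amplified to biotin-labelled cDNA and measured on 1 GeneChip array each. The deposited values are log2 intensities per probe set, made by the authors with GCRMA (background correction, normalization between arrays, summary per probe set), and the software version is not given in the sources used here. Undetected probe sets lie near 2, so a difference that reaches this level may be understated. The number of arrays limits the precision.

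Gene symbols came from the platform annotation, in which 15495 frog probe sets have 1 symbol, 279 several and 16701 none. Only single symbols were used, homeolog suffixes were removed, and RefSeq names (assembly v10.1), matched through gene IDs, covered 101 of the 102 members. Per gene, the probe set with the widest gap is given. In lists, the difference of a gene is the mean over its probe sets of mean 5 or higher. A gene of a list counts as lower or higher by the margin if at least 1 of these probe sets is. Members, gene lists and the rule for named genes were chosen with earlier results of these data known. Named are the 30 members with the widest gaps, those in a list, those with several probe sets and the 5 at the margin, and the remaining names in the text, like the groups of members by function, were picked with their values known. Computation used Python 3.11.15, numpy 2.4.6 and pandas 2.3.3. The selection step was tested on simulated data. Alternatives changed the margin, the mean, the normalization, the probe set and the arrays used.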

Additional observations from a re-analysis of the deposited data

How the results depend on the processing

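The number of members follows the margin by construction, with 173 genes and 187 probe sets at 0.6 and 64 genes and 73 probe sets at 1. Compared with 1 other pool instead of both, it ranged from 176 genes and 189 probe sets without replicate 2 to 225 genes and 255 probe sets without replicate 1, and without replicate 3 no value can be given. Centring or quantile normalization again gave 114 and 107 genes, all 102 members among them. Pool 3 had the highest median, so centring widened every gap and kept the members by construction. With the probe set of highest mean per gene, the median of the muscle list was 0.0244 instead of -0.16, and, with pool 3 set against 1 other pool, that of the energy list ranged from -0.0547 without replicate 1 to 0.0273 without replicate 2. Centring, normalization and leaving out pool 1 or 2 turned the direction of none of 46 named members. Leaving out a pool could not do so, since the rule sets pool 3 at least 0.8 below each. Centring could not either, as the medians of the arrays were 7.51 to 7.55. With the probe set of highest mean, 31 of the 46 were classed as the same. For 8 the size changed, as for atp2a1 (-1.47 to -0.05) and akr1c2 (-2.22 to -0.45). The direction turned for 7, adss1 (0.26), api5 (0.0527), hsd3b7 (0.18), pdlim7 (0.0244), scnn1b (0.11), tpm2 (0.39) and tubg1 (0.00879). Whether probe sets or copies of these genes differ in what they detect was not tested. Averaging all probe sets of mean 5 or higher per gene gave 74 genes. No paired analysis was possible because the 3 arrays form 1 group.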
